A study of Mus musculus with 12 samples.

Results

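The 7 Hedgehog response genes described here are the patched receptor Ptch1, the decoy receptor Hhip, the signal transducer Smo, the inhibitor Sufu and the transcription factors Gli1, Gli2 and Gli3. They were chosen by name, as 7 of the 23329 genes listed in the count tables. mRNAseq libraries were made from small intestinal stromal cells in primary culture, grown from E14.5 embryos or from adult mice on the C57BL6/J background, and labelled as myofibroblasts. Cultures of early passage received LPS from Escherichia coli O111:B4 for 6 h, or vehicle (PBS). The methods write the dose as 10 µg/µl, a unit that may be meant per millilitre. The 4 groups (embryonic PBS, embryonic LPS, adult PBS and adult LPS) held 3 libraries each, and carried no transgene or deletion that the labels name. The embryonic cultures were pools of 6 embryos and the adult cultures came from 3 mice. They are mixed cultures after passage, in which the methods describe CD45+CD11b+ leukocytes, and not freshly isolated tissue.

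Hedgehog proteins are secreted in the gut mainly by the epithelium and are received by the mesenchyme beneath it, where the pathway shapes smooth muscle, villi and the niche of the epithelium. Without ligand, PTCH1 holds SMO inactive, SUFU keeps the GLI factors in the cytoplasm, and GLI3 in particular is trimmed to a repressor. With ligand, SMO is released and GLI2 and GLI3 act as activators. Gli1, Ptch1 and Hhip are themselves target genes of the pathway in many tissues, so that their transcript level is often read as a measure of its activity, while Smo and Sufu are not.

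Ptch1 rose with LPS at both stages and was higher in adult than in embryonic stroma. Gli2 was lower with LPS in every pair of libraries at both stages, a fall that passed the test only when the pairs were fitted as such. Smo and Sufu did not pass any test, and Gli3 was higher in embryonic stroma without passing the edgeR test. Gli1 was close to the limit of detection in embryonic stroma and low in adult stroma, at 1 to 17 counts. Hhip ranged from 0 to 65 counts. After a filter on low counts (above 0.5 CPM, which are read counts scaled to library size, in all libraries of at least 1 group), 5 of the 7 genes were tested among 13038 genes. Gli1 and Hhip did not pass it. Counts assigned to genes ranged from 18850224 to 32672370 per library, so that 3 counts, taken as the floor of detection, corresponded to between 0.0908 and 0.145 CPM. Floors and intervals of counts cover counting error only.

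Markers of stroma were high in all libraries. The summed level of 8 fibroblast markers lay between 7758 and 23680 CPM and that of 8 smooth muscle and myofibroblast markers between 13790 and 36550 CPM. The fibroblast sum was lowest in the libraries with number 2. It was 8842 and 7758 CPM in embryonic PBS and LPS library 2, and 9168 and 8676 CPM in adult PBS and LPS library 2. All other libraries had at least 16690 CPM. Of the 8 fibroblast markers, Pdgfra alone was called between the stages, being lower in embryonic than adult PBS libraries by a log2 fold change of -3.71 (edgeR quasi-likelihood test with Benjamini-Hochberg adjustment, adjusted p = 0.00679). Others that were not called lay on either side, such as Thy1 at -1.72 (adjusted p = 0.132, edgeR) and Col1a1 at 0.85 (adjusted p = 0.273). Markers of other cells differed between libraries of a group. The summed level of 12 macrophage markers lay between 139 and 2008 CPM in embryonic libraries and between 7.70 and 97.6 CPM in adult libraries, and in an adult library up to 3 of the 12 had at most 3 counts and up to 1 had none. That of 7 endothelial markers lay between 15.3 and 36.0 CPM in embryonic libraries and between 14.7 and 1794 CPM in adult libraries. The sum of 5 mesothelial markers was 735.3 and 619.5 CPM in embryonic PBS and LPS library 2, and 141.6 to 152.7 CPM in the other embryonic libraries. In adult libraries it lay between 430.3 and 1421 CPM. In such bulk samples fewer cells of a type and less RNA per cell cannot be told apart, and the part of these cells in the results on the Hedgehog genes was not tested.

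**Figure D1:**
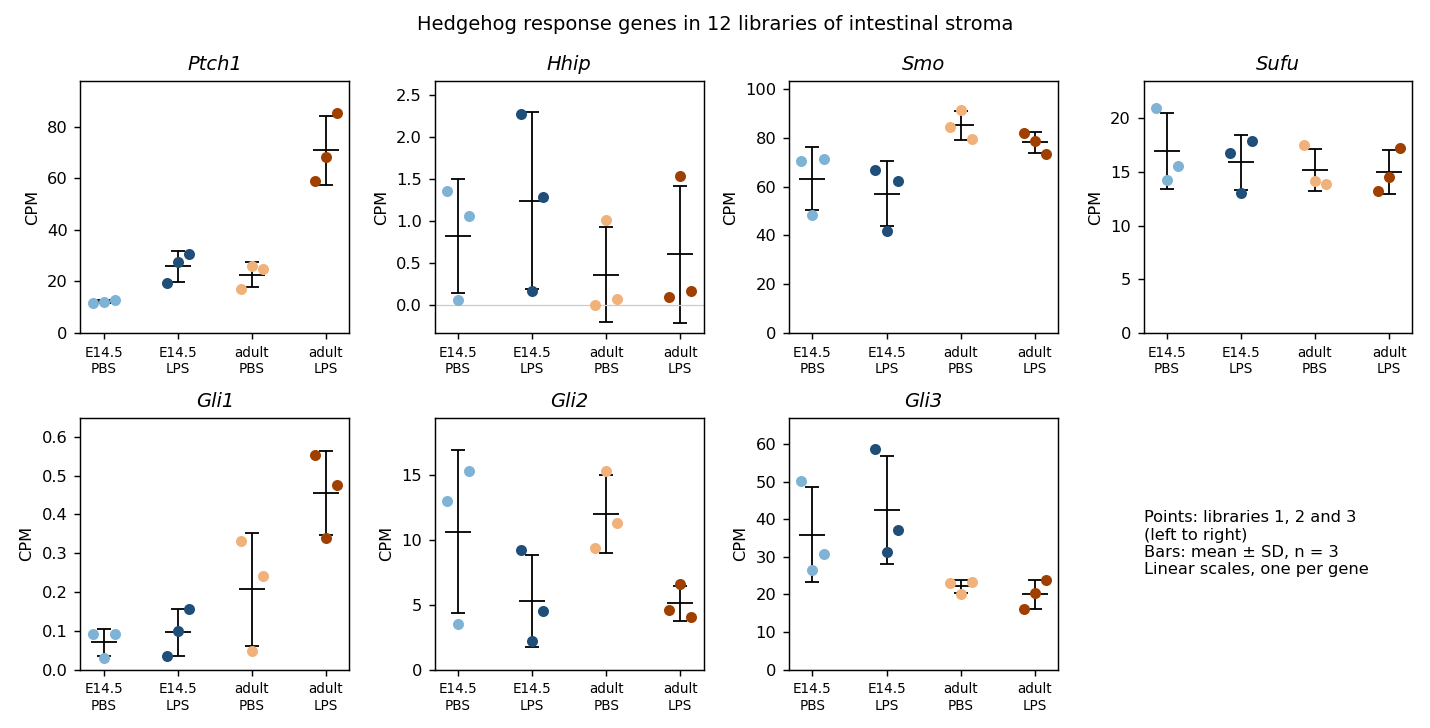
Level of the 7 Hedgehog response genes in each library, in CPM after TMM normalization on a linear axis for each gene; points are libraries 1, 2 and 3 of a group from left to right and bars give the mean ± SD (n = 3). Ptch1 sits at 11.6 to 13.0 CPM in embryonic PBS libraries and at 58.9 to 85.1 CPM in adult LPS libraries, while Gli1 is at most 0.552 CPM in any library.

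Ptch1 encodes the receptor that binds Hedgehog ligands and represses SMO. It lies on chromosome 13 from 63508328 to 63573598 (GRCm38, minus strand, protein coding). Its level was 11.6, 11.9 and 13.0 CPM in embryonic PBS libraries 1, 2 and 3, and 19.2, 27.6 and 30.6 CPM in embryonic LPS libraries 1, 2 and 3. In adult stroma it was 16.9, 26.1 and 24.8 CPM with PBS and 58.9, 68.3 and 85.1 CPM with LPS. At each stage all 3 LPS libraries were above all 3 PBS libraries, and for each treatment all 3 adult libraries were above all 3 embryonic libraries. The share of all tested genes whose groups separate in this way was not counted, for Ptch1 or for the members below. The group means were 12.2 ± 0.706 CPM (SD, n = 3) in embryonic PBS, 25.8 ± 5.89 in embryonic LPS, 22.6 ± 4.98 in adult PBS and 70.8 ± 13.2 in adult LPS libraries.

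The promoters of Ptch1 and Gli2 are shown because these are the members that passed a test under LPS. Each is the 250 bases before the start site in RefSeq (GRCm38.p6, minus strand), written 5′ to 3′ with CpG dinucleotides in capitals, and lies at chr13:63565736-63565985 for Ptch1 and chr1:119053620-119053869 for Gli2.
Ptch1: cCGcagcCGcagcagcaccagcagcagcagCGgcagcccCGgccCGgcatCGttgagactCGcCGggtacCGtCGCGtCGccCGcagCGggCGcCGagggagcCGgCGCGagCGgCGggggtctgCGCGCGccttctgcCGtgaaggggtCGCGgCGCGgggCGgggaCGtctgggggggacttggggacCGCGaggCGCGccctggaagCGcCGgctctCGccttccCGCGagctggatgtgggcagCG
Gli2: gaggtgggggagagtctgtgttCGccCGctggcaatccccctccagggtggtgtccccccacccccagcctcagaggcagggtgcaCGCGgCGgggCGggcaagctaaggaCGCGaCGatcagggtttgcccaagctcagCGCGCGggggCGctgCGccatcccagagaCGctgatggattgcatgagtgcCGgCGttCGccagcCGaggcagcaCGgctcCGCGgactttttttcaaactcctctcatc
Neither window overlaps an exon in the GENCODE annotation. Of the 10 annotated Ptch1 transcripts, 2 start further upstream and span the window as an intron. The Ptch1 window holds 41 CpG dinucleotides and 78.4% G or C, and the Gli2 window 22 and 67.2%, against a median of 6 CpG over 32851 promoters. RefSeq promoters were found for 6 of the 7 members, the other being Gli1. CpG counts of the others were 34 for Gli3, 28 for Hhip, 15 for Smo and 8 for Sufu. On either strand, the GLI motif GACCACCCA, its core CCACCCA (which it contains) and the NF-kB consensus were in none of the 6 windows. Among all promoters of this length 0.225%, 8.11% and 3.90% held them. The letters say nothing of binding outside these windows.

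With LPS, Ptch1 rose 2.12-fold in embryonic stroma (log2 fold change 1.09 ± 0.217 SE, adjusted p = 0.0274) and 3.13-fold in adult stroma (1.64 ± 0.219, adjusted p = 0.0111), in the quasi-likelihood test of edgeR, with p-values adjusted over all 13038 genes. It was 1 of 5 tested members called at an adjusted p under 0.05 in each stage, where 2.52% of all tested genes were called in embryonic and 0.568% in adult stroma. By its log2 fold change it ranked 724 of 13038 genes in embryonic and 314 in adult stroma. The replicate numbers were found to pair LPS with PBS libraries within a stage, and the change within pairs 1, 2 and 3 was 0.73, 1.21 and 1.24 in embryonic and 1.79, 1.38 and 1.77 in adult stroma, as a difference of log2 CPM. All 6 pairs rose, and the smallest adult rise was larger than the largest embryonic rise. With the pairs as a block in the edgeR fit, the log2 fold changes were 1.06 (95% interval 0.76 to 1.37, adjusted p = 0.00163) and 1.65 (1.36 to 1.95, adjusted p = 0.000315).

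The rise of Ptch1 did not pass the test of a difference between stages. The interaction, the embryonic minus the adult log2 fold change, was -0.56 (95% interval -1.23 to 0.11, adjusted p = 1 in the edgeR test), and -0.59 with the pairs as a block (-1.01 to -0.17, unadjusted p = 0.0118, adjusted p = 0.360 in the edgeR fit). No member was called in the interaction, and neither was any gene (0 of 13038, or 0%, with 281 genes at an unadjusted p under 0.05). With the block 0.805% of genes were called, with 1153 at an unadjusted p under 0.05, and again none of the 5 members. DESeq2 and limma voom also called no member in the interaction.

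The calls of Ptch1 in the model of 4 groups depended on single libraries. In embryonic stroma its adjusted p in the edgeR test was 0.0604 without embryonic LPS library 2, 0.108 without embryonic LPS library 3, and 0.106, 0.0855 and 0.0726 without embryonic PBS libraries 1, 2 and 3. In adult stroma it was 0.0640, 0.0519 and 0.0632 without adult PBS libraries 1, 2 and 3. The log2 fold change stayed between 0.95 and 1.24 in embryonic and between 1.47 and 1.76 in adult stroma. With the pairs as a block, Ptch1 was called at both stages whichever culture was left out, with an adjusted p of at most 0.00691 in embryonic and 0.00628 in adult stroma in the edgeR fit.

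Between the stages, Ptch1 was 1.86-fold lower in embryonic than adult PBS libraries (log2 fold change -0.90, standard error 0.216, adjusted p = 0.0481 in the edgeR quasi-likelihood test) and 2.74-fold lower in embryonic than adult LPS libraries (-1.46, standard error 0.217, adjusted p = 0.00776). It was again 1 of 5 tested members called, against 4.18% of all genes with PBS and 5.13% with LPS. With PBS the call was lost under most other settings, among them without any 1 of 9 of the 12 libraries, at adjusted p-values up to 0.156. These are adult LPS libraries 1, 2 and 3 (0.0518, 0.0669 and 0.0542), adult PBS libraries 2 and 3 (0.146 and 0.156), embryonic LPS library 2 (0.0540) and embryonic PBS libraries 1, 2 and 3 (0.111, 0.0846 and 0.0919). When the LPS and PBS libraries of a culture were summed, to give 3 embryonic against 3 adult cultures, the log2 fold change was -1.40 (adjusted p = 0.0305 in the edgeR test). The levels of macrophage, endothelial and fibroblast markers in these stages are given above, and their part in the difference was not tested.

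Hhip encodes a membrane protein that binds Hedgehog ligands and keeps them from PTCH1 (chromosome 8, 79965851 to 80058006, minus strand). Its counts were 45, 2 and 35 in embryonic PBS libraries 1, 2 and 3 and 65, 5 and 33 in the LPS libraries, with 0, 21 and 2 in adult PBS and 3, 50 and 4 in adult LPS libraries. At both treatments libraries of the same stage and number were alike, with embryonic cultures 1 and 3 and adult culture 2 at 1.01 to 2.28 CPM and the others at or near the floor. The groups overlapped in each comparison, and in an edgeR test without the filter Hhip reached adjusted p-values of 0.742 to 1. In log2 CPM, LPS exceeded PBS by 0.71, 0.85 and 0.27 in embryonic pairs 1, 2 and 3. In the adult pairs it did so by 1.27, 0.57 and 0.81. Each pair thus rose, though embryonic pair 2 and adult pairs 1 and 3 had at most 2 counts with PBS. Hhip was not in the fit with the pairs as a block, as it did not pass the filter.

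Smo encodes the membrane protein that passes the signal on (chromosome 6, 29735503 to 29761365, plus strand). It had 70.3, 48.2 and 71.1 CPM in embryonic PBS libraries 1, 2 and 3 and 66.9, 41.9 and 62.5 CPM in embryonic LPS libraries, and 84.6, 91.4 and 79.4 CPM in adult PBS and 82.2, 78.7 and 73.4 CPM in adult LPS libraries. All adult libraries were above all embryonic libraries of the same treatment, while LPS and PBS libraries overlapped at both stages. The log2 fold change of embryonic against adult stroma was -0.43 with PBS (adjusted p = 0.244) and -0.45 with LPS (adjusted p = 0.197), which did not pass the edgeR test. Smo was slightly lower with LPS in all 6 pairs, by log2 fold changes of -0.15 (95% interval -0.57 to 0.27) in embryonic and -0.12 (-0.54 to 0.30) in adult stroma. Within the pairs these intervals were -0.31 to 0.00 and -0.28 to 0.03.

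Sufu encodes the cytoplasmic inhibitor that binds GLI factors (chromosome 19, 46396896 to 46488804, plus strand). Its level lay between 13.1 and 20.9 CPM in all 12 libraries, with means of 16.9 ± 3.54 CPM (SD, n = 3) in embryonic PBS, 15.9 ± 2.55 in embryonic LPS, 15.2 ± 1.99 in adult PBS and 15.0 ± 2.02 in adult LPS libraries. The groups overlapped in every comparison. Its log2 fold change with LPS was -0.09 (95% interval -0.52 to 0.34) in embryonic and -0.02 (-0.45 to 0.41) in adult stroma, and between stages 0.16 (-0.27 to 0.58) with PBS and 0.09 (-0.34 to 0.51) with LPS. No adjusted p was under 0.737 in these 4 edgeR tests, and the intervals leave room for changes of up to 0.58 on the log2 scale.

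Gli2 encodes the factor that acts as the main activator when the pathway is on (chromosome 1, 118834132 to 119053619, minus strand). It had 13.0, 3.50 and 15.3 CPM in embryonic PBS libraries 1, 2 and 3 and 9.19, 2.24 and 4.52 CPM in embryonic LPS libraries. In adult stroma it had 9.39, 15.3 and 11.3 CPM with PBS and 4.61, 6.63 and 4.10 CPM with LPS. The adult LPS libraries were all below the adult PBS libraries, whereas the embryonic groups overlapped, PBS library 2 being low. Within pairs 1, 2 and 3 the difference of log2 CPM was -0.50, -0.63 and -1.75 in embryonic and -1.01, -1.20 and -1.44 in adult stroma, so that all 6 pairs fell.

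**Figure D2:**
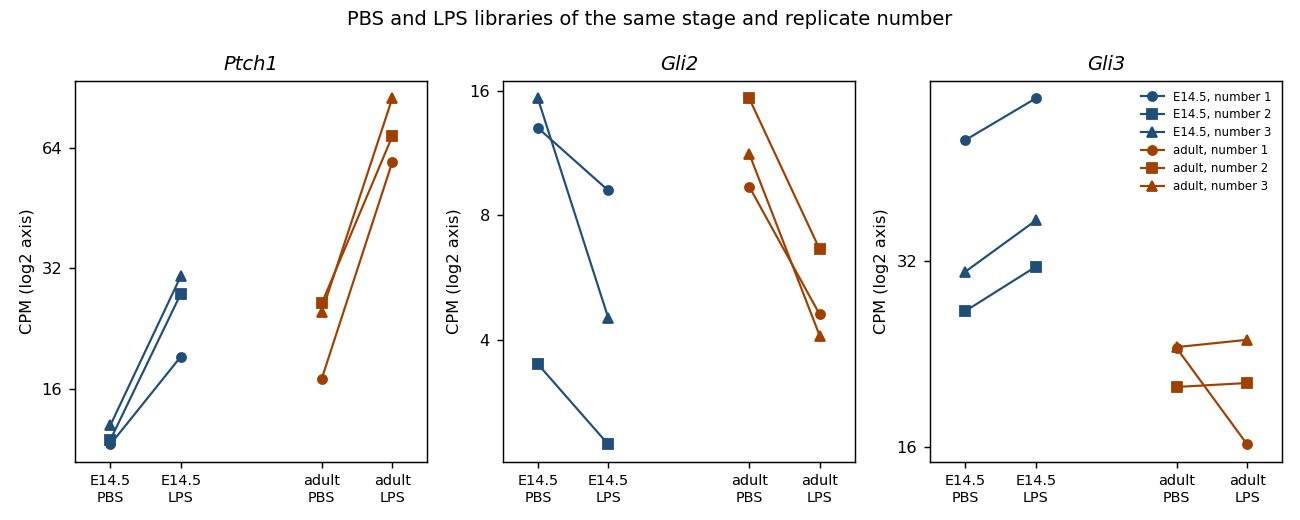
Level of Ptch1, Gli2 and Gli3 in CPM, on a log2 axis, in the PBS and LPS libraries of the same stage and replicate number, each pair joined by a line (blue, E14.5; brown, adult; the marker gives the number). Ptch1 rises and Gli2 falls in all 6 pairs, while Gli3 rises in 3 of 3 embryonic pairs and changes direction among the adult pairs.

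In the model of 4 groups, the log2 fold changes of Gli2 were -0.997 (95% interval -2.27 to 0.28, adjusted p = 0.657) in embryonic and -1.23 (-2.51 to 0.05, adjusted p = 0.948) in adult stroma, and the edgeR test called neither. With the pairs as a block they were -0.98 (-1.54 to -0.41, adjusted p = 0.0385) and -1.23 (-1.78 to -0.67, adjusted p = 0.0248), and both were called in the edgeR fit. Then 2 of the 5 tested members, Ptch1 and Gli2, were called at each stage, where the block called 12.7% of all genes in embryonic and 6.11% in adult stroma. The number of genes called overall thus rose with the block as well. Markers of cell types moved in the same blocked edgeR fit. The fibroblast marker Pdgfrb fell at both stages, with log2 fold changes of -0.29 (embryonic, adjusted p = 0.0492) and -0.49 (adult, adjusted p = 0.0109), and Pdgfra rose in adult stroma (0.76, adjusted p = 0.00672). In embryonic stroma 3 of 5 markers of dividing cells fell (Aurkb, Top2a and Ccnb1). Of the 12 macrophage markers 3 rose there (Ptprc, Emr1 and Fcgr1) and 1 fell (Cx3cr1). The endothelial marker Kdr and Ano1, a marker of interstitial cells of Cajal, rose in embryonic stroma. The mesothelial marker Lrrn4 fell in adult stroma. These counts stand beside the 12.7% and 6.11% of all genes called at the 2 stages. The part of these cell types in the changes of Ptch1 and Gli2 was not tested. In the model of 4 groups Gli2 ranked 12759 of 13038 genes in embryonic and 12989 in adult stroma, counted from the largest rise.

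The blocked call of Gli2 rested on few cultures. In embryonic stroma its adjusted p was 0.0850 in the edgeR fit without embryonic culture 3, where its log2 fold change was -0.56, and between 0.0685 and 0.0753 without any 1 of the adult cultures, whose libraries enter the shared estimate of spread. In adult stroma it was 0.130, 0.112 and 0.201 without adult cultures 1, 2 and 3. All these fits kept a negative log2 fold change. Between stages Gli2 did not differ beyond its spread, with log2 fold changes of -0.18 (-1.43 to 1.08) with PBS and 0.06 (-1.22 to 1.33) with LPS.

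Gli3 encodes the factor best known as the repressor of the pathway (chromosome 13, 15463235 to 15730026, plus strand). It had 50.3, 26.6 and 30.8 CPM in embryonic PBS and 58.7, 31.3 and 37.2 CPM in embryonic LPS libraries 1, 2 and 3, and 23.1, 20.0 and 23.2 CPM in adult PBS and 16.2, 20.3 and 23.9 CPM in adult LPS libraries. All embryonic libraries were above all adult libraries of the same treatment, and embryonic culture 1 was the highest with either treatment. The log2 fold change between stages was 0.70 (95% interval 0.07 to 1.32, adjusted p = 0.202) with PBS and 1.08 (0.45 to 1.71, adjusted p = 0.0563) with LPS, neither of which passed the edgeR test. DESeq2 called the second, at an adjusted p of 0.00558. With LPS it differed from PBS by 0.22, 0.24 and 0.27 in the embryonic pairs and by -0.52, 0.02 and 0.04 in the adult pairs on the log2 scale, and the edgeR fit with the block called neither (adjusted p = 0.208 and 0.593).

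Gli1 encodes the activator whose own transcription depends on the pathway (chromosome 10, 127329882 to 127341974, minus strand). Its counts were 3, 1 and 3 in embryonic PBS libraries 1, 2 and 3, 1, 3 and 4 in embryonic LPS, 9, 1 and 7 in adult PBS and 17, 11 and 11 in adult LPS libraries. At these depths 5 of the 6 embryonic libraries were at or under the floor of 3 counts. The adult LPS libraries, at 0.339 to 0.552 CPM, were above the adult PBS libraries, at 0.0482 to 0.331 CPM, and above all embryonic libraries. In log2 CPM, LPS differed from PBS by 0.63, 1.80 and 0.81 in adult pairs 1, 2 and 3. In the embryonic pairs, which rest on 1 to 4 counts, the differences were -0.62, 0.75 and 0.49. In an edgeR test without the filter on low counts, the log2 fold change with LPS in adult stroma was 1.09 (standard error 0.658, adjusted p = 1), and that of embryonic against adult LPS libraries -2.20 (standard error 0.707, adjusted p = 0.124). Neither passed the test, and the fitted values of a gene this low depend on the prior count. Its 3′ end overlaps Arhgap9, which lies on the opposite strand from 127321964 to 127329943, and its body overlaps the antisense gene Gm47200. The library preparation kept the strand.

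**Figure D3:**
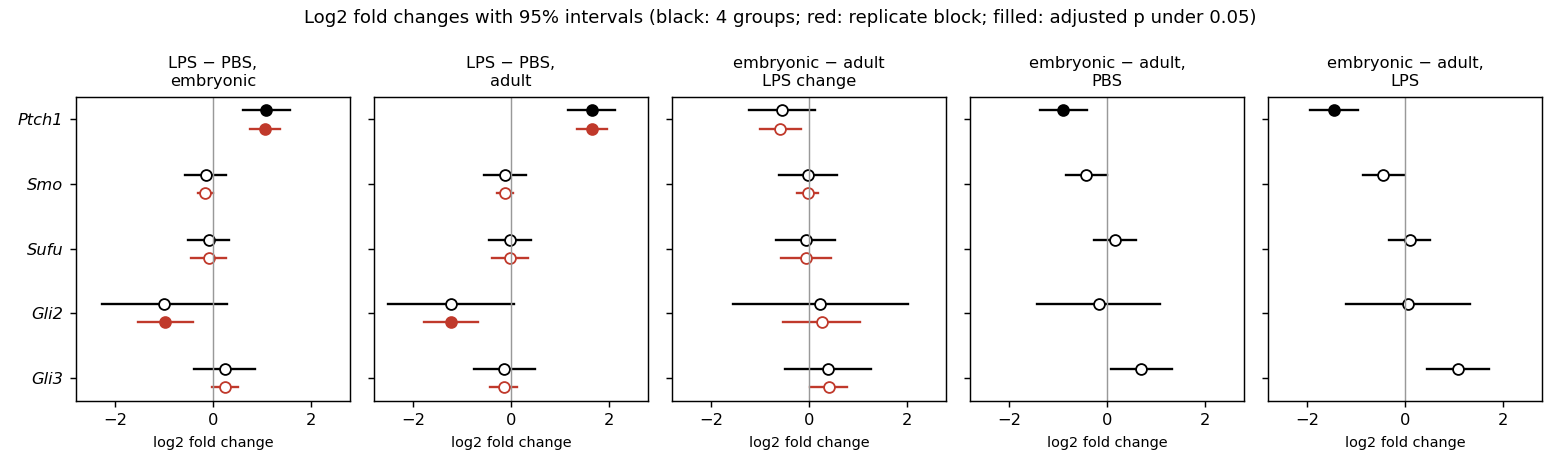
Log2 fold changes (x axis) of the 5 tested members in the 5 comparisons, with 95% intervals, from the model of 4 groups (black) and, for the LPS comparisons and their difference, with LPS and PBS libraries paired as a block (red); filled points have an adjusted p under 0.05. Ptch1 is filled in 4 comparisons in black, and Gli2 is filled only in red, at -0.98 in embryonic and -1.23 in adult stroma.

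Levels of different genes were compared per kilobase of annotated exon. That length joins the exons of all annotated transcripts of a gene, such as 14185 bases for Ptch1 (10 transcripts) and 5621 for Smo (2 transcripts). The order of genes and the size of ratios between genes depend on this choice, and other lengths were not tried. In adult PBS libraries Smo was the highest, at 15.1 ± 1.07 CPM per kilobase (SD, n = 3), followed by Gli3 at 2.31 ± 0.190, Sufu at 1.98 ± 0.259, Gli2 at 1.75 ± 0.443 and Ptch1 at 1.60 ± 0.351, with Gli1 at 0.0414 ± 0.0290 and Hhip at 0.0397 ± 0.0623. The ranges of mean ± SD overlapped between neighbours from Gli3 to Ptch1, and between Gli1 and Hhip. In embryonic PBS libraries the order was Smo at 11.2 ± 2.31, Gli3 at 3.74 ± 1.32, Sufu at 2.20 ± 0.460, Gli2 at 1.55 ± 0.913, Ptch1 at 0.857 ± 0.0498, Hhip at 0.0912 ± 0.0750 and Gli1 at 0.0142 ± 0.00697. There, too, these ranges overlapped between neighbours from Gli3 to Ptch1 and between Hhip and Gli1.

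With LPS the transcript level of Ptch1 moved closer to that of Smo. The ratio of Ptch1 to Smo per kilobase was 0.0654, 0.0979 and 0.0721 in embryonic PBS and 0.114, 0.261 and 0.194 in embryonic LPS libraries 1, 2 and 3. It was 0.0794, 0.113 and 0.124 in adult PBS and 0.284, 0.344 and 0.459 in adult LPS libraries. All LPS libraries were above all PBS libraries at both stages. The ratio of Gli3 to Gli2 per kilobase was 2.77, 5.43 and 1.44 in embryonic PBS, 4.58, 10.0 and 5.90 in embryonic LPS, 1.76, 0.935 and 1.48 in adult PBS and 2.51, 2.20 and 4.17 in adult LPS libraries. It was higher with LPS in all 6 pairs, although the embryonic groups overlapped. These transcript ratios carry no test and do not show which form of the GLI proteins was present.

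Transcripts of the ligands Shh and Ihh were scarce, while those of Dhh varied between cultures. Shh, the sonic ligand, had 1 count in adult PBS library 2 and 0 in the other 11 libraries, and Ihh, the Indian hedgehog ligand of the gut epithelium, had 0 to 4 counts. Dhh, the desert hedgehog ligand, had 10, 48 and 5 counts in embryonic PBS, 11, 83 and 11 in embryonic LPS, 4, 188 and 58 in adult PBS and 11, 218 and 43 in adult LPS libraries. Its highest values, 9.07 and 6.72 CPM, were in adult culture 2, where the endothelial marker sum was highest as well (1794 and 1724 CPM), and its groups overlapped in every comparison. Among the embryonic cultures Dhh was highest in culture 2 too, at 1.46 and 2.74 CPM, where that sum was lowest (15.3 and 31.6 CPM). The part of endothelial cells in the level of Dhh was not tested.

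A further 59 genes of the pathway were listed by role, in 5 groups, and 51 of them were tested. In the model of 4 groups no call among them was made for LPS at either stage (0 of 51 in edgeR, with 5 in embryonic and 2 in adult stroma at an unadjusted p under 0.05). DESeq2 called 0 and 2 of them, and limma voom with the culture as a random effect 3 and 3. Their median log2 fold change was -0.02 in embryonic and -0.08 in adult stroma, against -0.03 and -0.02 for all tested genes in edgeR. Between stages 3 of 51 (5.88%) were called with PBS, all lower in embryonic stroma, and 4 (7.84%) with LPS. Against 4.18% and 5.13% of all genes, these shares rest on few genes. All 3 genes called with PBS are among the 22 tested genes of relay and control of GLI factors. Spop, a ubiquitin ligase adaptor for GLI factors, had 168 ± 14.1 CPM in embryonic and 227 ± 3.53 CPM in adult PBS libraries (log2 fold change -0.44, adjusted p = 0.0304, edgeR). Evc, a ciliary partner of SMO, had 10.3 ± 1.65 and 20.1 ± 2.94 CPM (-0.96, adjusted p = 0.0191, edgeR). Dzip1, needed for primary cilia and Hedgehog signalling, had 45.6 ± 1.62 and 75.2 ± 3.81 CPM (-0.72, adjusted p = 0.0187, edgeR).

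Spop and Evc were lower in embryonic stroma with LPS too, by log2 fold changes of -0.38 (adjusted p = 0.0419, edgeR) and -0.77 (adjusted p = 0.0388). Of the 9 genes of primary cilium transport, Ift80 was called, at 8.80 ± 2.29 CPM in embryonic and 15.8 ± 2.14 CPM in adult LPS libraries (-0.85, adjusted p = 0.0426, edgeR). Of the 5 tested co-receptors, Gpc3, a glypican that binds Hedgehog ligands, was the 1 gene called higher in embryonic stroma, at 236 ± 173 CPM against 21.0 ± 6.58 CPM with LPS (3.49, adjusted p = 0.0462, edgeR). Embryonic LPS libraries 1, 2 and 3 had 343.5, 36.4 and 327.4 CPM of Gpc3, against 17.1 to 28.6 CPM in adult LPS libraries. The difference thus lay mostly in embryonic cultures 1 and 3. In edgeR none of the 4 tested genes of ligands and their release and none of the 11 tested further targets in mesenchyme was called between stages, whereas DESeq2 called Scube1 with PBS and with LPS, and Ccnd2 and Mycn with LPS.

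**Figure D4:**
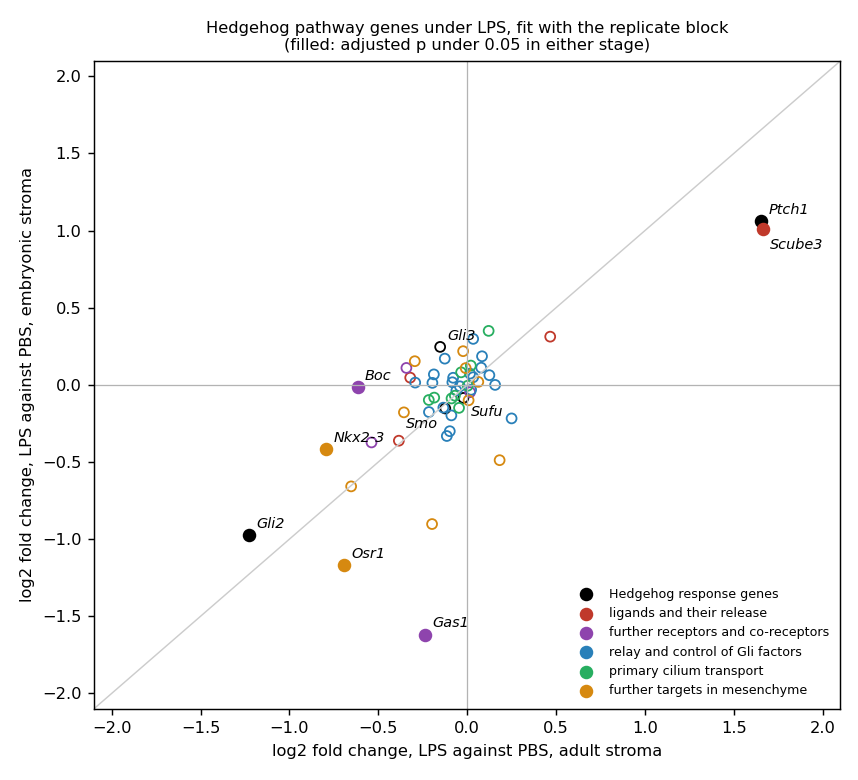
Log2 fold change with LPS in adult (x axis) and embryonic stroma (y axis) of the tested Hedgehog response genes and 51 further pathway genes, from the fit with the replicate pairs as a block; filled points have an adjusted p under 0.05 in either stage and the diagonal marks equal change. Ptch1 and Scube3 lie together at the upper right, at 1.06 and 1.01 in embryonic stroma, and Gli2, Osr1, Gas1, Nkx2-3 and Boc lie on the side of lower levels, Boc at -0.01 in embryonic stroma.

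With the pairs as a block, LPS changed 4 of the 51 genes in embryonic stroma (7.84%, against 12.7% of all genes) and 3 in adult stroma (5.88%, against 6.11%). The 5 genes involved were named after their values were seen. Scube3, which helps to release lipid-bound Hedgehog ligands, had 17.2, 10.1 and 8.08 CPM in embryonic PBS and 36.0, 14.3 and 22.1 CPM in embryonic LPS libraries, and 8.98, 9.50 and 8.24 CPM in adult PBS and 25.2, 29.3 and 30.4 CPM in adult LPS libraries. All 6 pairs rose, with log2 fold changes of 1.01 (adjusted p = 0.00769) and 1.66 (adjusted p = 0.00141) in the blocked edgeR fit, against adjusted p-values of 0.200 and 0.0755 without the block.

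The other genes fell. Nkx2-3, a homeobox gene of gut mesenchyme, fell in all 6 pairs, with log2 fold changes of -0.42 (embryonic stroma, adjusted p = 0.0371) and -0.79 (adult stroma, adjusted p = 0.00413) in the blocked edgeR fit. Gas1, a co-receptor for Hedgehog ligands, fell in embryonic stroma (log2 fold change -1.62, adjusted p = 0.0448, same fit), from 146, 11.5 and 107 CPM with PBS to 34.4, 10.9 and 19.5 CPM with LPS in libraries 1, 2 and 3, so that the fall lay in cultures 1 and 3. Osr1, a zinc finger factor of mesenchyme, had 35.2, 8.26 and 43.5 CPM with PBS and 12.7, 7.75 and 12.4 CPM with LPS in the same cultures (-1.17, adjusted p = 0.0356), again with little change in culture 2. Boc, another co-receptor, had 48.2, 72.4 and 59.2 CPM in adult PBS and 36.0, 39.5 and 40.3 CPM in adult LPS libraries (-0.62, adjusted p = 0.0127, blocked edgeR fit). Its interaction with stage reached an adjusted p of 0.193 in that fit and was not called.

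The tested genes outside the members whose level followed Ptch1 most closely over the 12 libraries, by Pearson's r of log2 CPM, were Rbpj (r = 0.953), Tslp (0.944), Prokr2 (0.940), Pglyrp3 (0.934) and Arg2 (0.932). The libraries share stages, treatments and cultures, so these values are a description. Rbpj, the DNA-binding partner of Notch receptors, was higher with LPS, by log2 fold changes of 0.58 in embryonic stroma and 0.75 in adult stroma. Tslp, an epithelial and stromal cytokine, was higher by 2.87 and 4.19. Both were picked for following Ptch1, which rose with LPS in the same libraries. A rise with LPS thus follows in part from the choice, and no p-value is given for it. For Gli1 the closest genes were Hspa1a (r = 0.904), Chst11 (0.894), Hspa1b (0.894), Sipa1l2 (0.892) and Tmc4 (0.888), a likeness that rests on 1 to 17 counts of Gli1 per library.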

How the data were processed

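Strand-specific poly(A) mRNAseq libraries were made from 12 samples of cultured intestinal stroma, 3 in each of 4 groups. The authors trimmed the reads, mapped them to GRCm38.p6 with STAR, allowing at most 1 mismatch and keeping unique reads, and deposited unnormalized counts of reads for each gene symbol. Counts on the strand of the gene were used. The opposite strand held 1.14% to 1.98% of the counts of both strands. Rows that name no gene were left out. Reads that met no exon on the counted strand were 8.36% to 9.43%, and ambiguous reads 0.334% to 0.425%. Groups and replicate numbers came from the labels, dose and time from the methods.

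CPM were computed with TMM factors of 0.895 to 1.10. All 12 libraries were fitted in 1 model of the 4 groups with edgeR 4.0.16 (quasi-likelihood test) in R 4.3.3; 13038 of 23329 genes had a CPM above 0.5 in all libraries of at least 1 group. A gene was called at an adjusted p under 0.05 (Benjamini-Hochberg over all tested genes), with no fold threshold. log2 CPM used a prior count of 2. Exon lengths came from GENCODE M21 and promoters from RefSeq. The model of 4 groups was run on simulated counts of independent libraries, with larger changes than most members showed and less spread than these data. The blocked fit and the interaction were not simulated. That check thus does not show how often the tests err on these paired libraries.

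Samples with the same number in the LPS and PBS group of a stage deviated together from their group means (r = 0.709 to 0.784 in embryonic and 0.610 to 0.849 in adult stroma), so the numbers pair them, although the labels do not say that they share a culture; numbers did not pair embryonic with adult samples (r = -0.306 to -0.002). The biological coefficient of variation was 0.340 without and 0.126 with the pairs as a block. Libraries of a group differed by a chi-square per gene of at least 33.6, so none repeats another. In the model of 4 groups, p-values measure the spread between libraries of a group, with paired LPS and PBS libraries treated as independent. With the block they measure how far the LPS change varied between pairs. With the LPS and PBS libraries of a culture summed, those between stages measure the spread between cultures.

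The members, the pathway and marker lists and the rule for named genes (all members, called genes of each list, the ligands, and the 5 closest patterns to Ptch1 and to Gli1) were chosen with earlier results of these data known. Of the listed names, Grk2 and Foxf1 stand in the files as Adrbk1 and Foxf1a, and Mosmo was not analysed. The values of 1 listed gene are not reported here. Alternatives were other size factors, filters, thresholds and tools (DESeq2 1.42.0, limma 3.58.1), counts on either strand, blocks, summed cultures and left-out libraries. The blocked fits without a culture were chosen after seeing the data.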

Additional observations from a re-analysis of the deposited data

Results flagged for a closer look

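Reads on the strand opposite to Gli1 exceeded those on its own strand, and the floor of 3 counts, in 3 libraries. There were 27 against 3 in embryonic PBS library 3, 10 against 1 in embryonic PBS library 2 and 7 against 4 in embryonic LPS library 3. In the same libraries Arhgap9, the gene on the opposite strand that overlaps the end of Gli1, had 407, 91 and 59 counts on its own strand, against 1 to 46 in the other 9 libraries. These reads were not counted for Gli1 in any comparison. Groups of 3 libraries are too small for the test of single distant samples.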

How the results depend on the processing

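No member changed direction while called under any setting. Of 620 log2 fold changes of members over the planned settings, 551 kept direction and call, 33 lost the call, 7 gained it and 29 changed sign with no call in either setting. Only Ptch1 was called in the main setting, so that all 33 lost calls were of Ptch1. Most of the 551 were results called in neither setting. Settings that changed a threshold alone could not change a direction. The number of members called, 1 in each LPS comparison and each comparison of stages, became 2 with LPS at both stages with the replicate pairs within a stage as a block, and 2 for embryonic against adult LPS libraries with a block across stages and with DESeq2. It became 0 for each of these comparisons where a log2 fold change of 2 or more in either direction was required. At an adjusted p under 0.01 it became 0 for LPS at both stages and for the stages with PBS. With library totals only it became 0 for LPS in embryonic stroma and the stages with PBS. For the stages with PBS it was also 0 with upper quartile factors, with no filter on low counts, with CPM above 1 and in limma voom. With the 6 libraries of a comparison alone it became 0 in embryonic stroma and in both comparisons of stages. With 1 library left out it ranged from 0 to 1 for LPS in embryonic stroma, LPS in adult stroma and the stages with PBS, and from 1 to 2 for the stages with LPS. The interaction stayed at 0 under all settings run. The causes were not tested.

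Over all genes the block moved the count of called genes from 329 to 1660 in embryonic and from 74 to 796 in adult stroma, and from 0 to 105 in the interaction. Among the members it changed no other call than that of Gli2. Over the settings other than left-out libraries, the adjusted p of Ptch1 with LPS ranged from 0.000214 to 0.139 in embryonic and from 2.35e-09 to 0.0184 in adult stroma. For Gli2 it ranged from 0.0385 to 0.960 and from 0.0248 to 1. Without 1 library the adjusted p of Gli3 between stages with LPS ranged from 0.0387 to 0.163. Of the 51 further pathway genes, DESeq2 called 7 between stages with PBS and 10 with LPS, against 3 and 4 in edgeR, and limma voom called 3 and 1. The depth sets a floor near 0.1 CPM, at which embryonic PBS and LPS libraries cannot be compared for Gli1.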
